A study of Mus musculus with 9 samples.

Results

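H/ACA small nucleolar RNAs and small Cajal body RNAs were described in 9 mouse hearts. The set held every probe set of a whole-transcript gene array whose annotation gave a single symbol starting with Snora or Scarna, 34 probe sets for 31 genes out of 23521 probe sets with 1 symbol. Of these, 28 probe sets stood for 26 Snora genes and 6 for 5 Scarna genes. A probe set was called dim when its mean log2 signal did not exceed 5.21, the median over all probe sets. By this rule 31 probe sets for 29 genes were tested, and the probe sets of Snora19 (a pair) and Scarna8 were dim.

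The hearts came from 2 month old mice of 3 genotypes: 3 wild type hearts, 3 Col4a3-/- hearts, which lack a chain of type IV collagen, and 3 Col4a3-/-OPN-/- hearts, which lack that chain and also osteopontin, a secreted glycoprotein. Each array held 1 heart, and hearts were snap frozen before RNA extraction. The labels name neither sex nor strain. The reagent they list for labelling is one sold for small RNA, but the probes are annotated as a gene array, so how these short RNAs were labelled is uncertain. By its title the study addressed heart failure in which ejection fraction is preserved, and the place of osteopontin and mitochondria in it.

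H/ACA RNAs fold into hairpins that pair with a target RNA and direct the conversion of chosen uridines to pseudouridine. Small nucleolar members act mainly on ribosomal RNA, and small Cajal body members on the small nuclear RNAs of the spliceosome. Each is bound by a set of core proteins, dyskerin (Dkc1), Nhp2, Nop10 and Gar1. Most are cut from the introns of a host gene, often one for a ribosomal protein or a translation factor, so a member and the mRNA of its host start as 1 transcript. A few depart from this pattern: Snora73 RNAs (also called U17 or E1) serve the cleavage of the ribosomal RNA precursor, Scarna2 and Scarna17 carry box C/D guides, and Scarna10 joins both box types. According to the RefSeq gene table of assembly GRCm38.p6, which gives no strand, 30 of the 31 genes lay inside another gene. The exception was Scarna2.

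For 2 members a microRNA hairpin in the RefSeq table covers part of the RNA. These stretches are shown with matches to the box motifs that name the class. The whole table entry of Snora19, 56 bases at chr19:60774330-60774385 (GRCm38.p6, minus strand, within the Mir3084-2 hairpin), is given with its ACA box in capitals. The first 73 bases of Snora34, at chr15:98519762-98519834 (GRCm38.p6, minus strand, within the Mir1291 hairpin), are given with a match to the H box motif ANANNA in capitals. The strand of both was taken from the hairpin.
Snora19: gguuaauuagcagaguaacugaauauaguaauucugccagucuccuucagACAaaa
Snora34: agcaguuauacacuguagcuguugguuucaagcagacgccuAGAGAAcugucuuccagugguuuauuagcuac
In Snora19 the letters ACA ended 3 bases before the 3′ end, as in other RNAs of the class. The same placement was found in 1.63% of 981 microRNA hairpins of at least that length, on the transcribed strand. ANANNA occurred 1 time in the Snora34 stretch, while the first 73 bases of 54.6% of 615 hairpins held it. That short motif is thus a weak mark by itself, and whether this match is the H box of Snora34 was not tested. Snora19 was dim, at 4.76 to 5.18 log2 units on both probe sets, and Snora34 (probe set 17321241) was at 11.02 to 11.72 over the 9 hearts.

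The arrays were similar in scale, with medians between 5.18 and 5.24. Cardiomyocyte markers were above the dim limit for 6 of 6 genes, and their summed level ranged from 14.9 to 15.1 over all hearts. The deleted genes could not check the labels: Col4a3 was dim in its mean over the hearts (5.18, with 4.87 to 5.52 in single hearts), and no probe set carried the symbol of the osteopontin gene. Xist was high (7.59 to 8.56) in 3 hearts, namely replicates 1 and 3 of Col4a3-/- and replicate 2 of Col4a3-/-OPN-/-. It was at 4.52 to 4.77 in the other 6, so hearts with a female pattern were unevenly spread over the genotypes. Atrial markers summed to 12.8 and 13.0 in Col4a3-/- replicates 1 and 3 and to between 13.6 and 13.9 in all other hearts. Smooth muscle markers (4 of 4 above the dim limit) summed to 9.91 to 10.85 in Col4a3-/- hearts, 11.27 to 11.68 in wild type and 10.92 to 11.17 in Col4a3-/-OPN-/- hearts. Airway markers summed to 12.3 and brown fat markers to 11.8 in Col4a3-/- replicate 2, and endothelial activation markers to 10.99 in Col4a3-/- replicate 3, against at most 10.1, 10.1 and 8.12 elsewhere. Leukocyte markers, 4 of 6 above the dim limit, summed to 9.38 and 9.65 in Col4a3-/- replicates 2 and 3 and to 8.70 to 9.05 in the other hearts. Of the 4, Cd68 and Cd14 were higher in Col4a3-/- than in wild type hearts at an unadjusted p under 0.05. Cd14 was lower in Col4a3-/-OPN-/- than in Col4a3-/- hearts at such a p. The other 2 did not follow, with log2 differences between Col4a3-/- and wild type hearts of 0.05 for Ptprc and -0.18 for Cd3e. Cd3e was also lower in Col4a3-/-OPN-/- than in wild type hearts at such a p. The part of these differences in the results that follow was not tested. In whole hearts, fewer cells of a type and less RNA per cell cannot be told apart.

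In Col4a3-/- hearts most H/ACA RNAs had a higher mean signal than in wild type hearts. The difference was above 0 for 28 of 31 probe sets, against 45% of all 13650 probe sets tested, and the members' median log2 difference was 0.31 against -0.02 over all. No member passed the test over all probe sets (limma adjusted p from 0.209 to 0.998; 0 of 13650 probe sets passed at all). At an unadjusted p under 0.05 there were 11 members (35.5%), against 8.35% of all probe sets. All 11 were on the higher side and 0 on the lower side, where 2.39% and 5.96% of all probe sets lay. All 3 Col4a3-/- hearts exceeded all 3 wild type hearts at 12 members (38.7%), against 4.58% of all, and 0 members had the reverse, against 7.9% of all. With the values quantile normalized again 29 members were above 0, and with arrays centred on their medians 26. Members are not independent of each other, since several share a host gene and all share the 9 hearts.

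**Figure D1:**
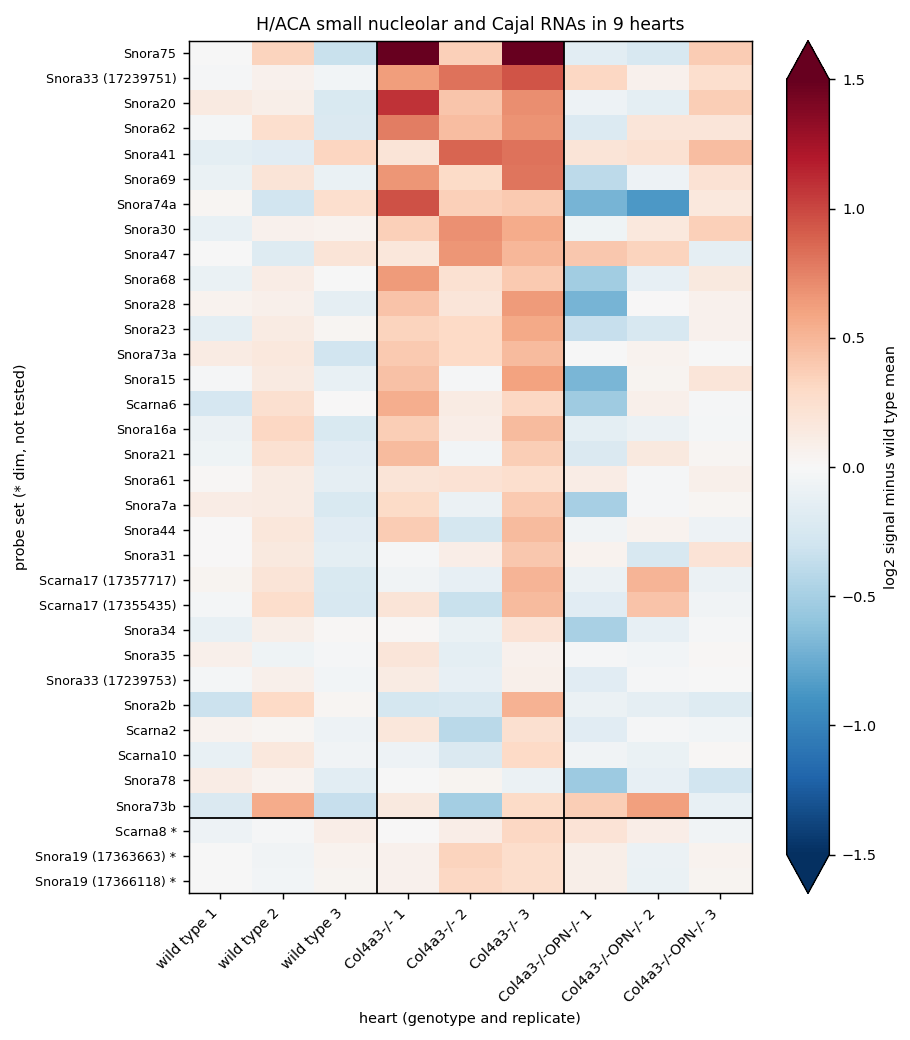
Log2 signal minus the wild type mean for the 34 probe sets (rows, ordered by the difference between Col4a3-/- and wild type hearts) in each of the 9 hearts (columns); red is higher, blue lower, and colours stop at 1.5. All 31 tested probe sets of Col4a3-/- replicate 3 were above their mean over the 9 hearts, and the 3 dim ones are marked with an asterisk.

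The shift was not equal in the 3 Col4a3-/- hearts. The median of the members' deviations from the wild type mean was 0.34 in replicate 1, 0.10 in replicate 2 and 0.47 in replicate 3, and it was -0.02, 0.12 and -0.11 in the wild type hearts. In the same order, 21, 14 and 27 of the 31 members exceeded every wild type heart in the Col4a3-/- hearts. Replicate 2, whose Xist was low like that of all wild type hearts, was below every wild type heart at 7 members, among them Scarna2, Scarna10, Snora44 and Snora73b. The share of all probe sets outside the wild type range was not counted for single hearts. One heart can lie outside 3 others by order alone, so these counts have no background and are description only. With only the 6 low-Xist hearts in the fit, the members' median was 0.10. In that fit 18 of 31 members were above 0, against 45.9% of all probe sets, and the lone Col4a3-/- heart was assumed to vary like the other genotypes. When mean Y-linked signal entered the fit, the median was 0.17 and 19 of 31 members were above 0, against 46.5% of all probe sets. At an unadjusted p under 0.05 there were 5 members, all higher, where 304 of 13650 probe sets were higher and 411 lower.

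Snora33 had the smallest p among the members. It lies in Rps12, the gene of a small-subunit ribosomal protein, and has 2 probe sets that behaved differently. On probe set 17239751 it was at 5.85, 5.93 and 5.82 in wild type, 6.49, 6.68 and 6.81 in Col4a3-/-, and 6.18, 5.94 and 6.11 in Col4a3-/-OPN-/- hearts. All Col4a3-/- hearts lay above all others there, and the log2 difference from wild type was 0.79 (SE 0.13, limma adjusted p = 0.209). On probe set 17239753, which read 12.3 to 12.5 in all hearts, it was 0.03 (SE 0.09, limma adjusted p = 0.955) and the groups overlapped. Across the 9 hearts the probe sets were nearly unrelated (Pearson's r = 0.14 as a description), so the Snora33 difference belongs to 1 probe set of the gene. In Col4a3-/-OPN-/- against wild type hearts they even had opposite signs, 0.21 and -0.06.

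Snora75, hosted by the gene of nucleolin, an abundant nucleolar protein, had the largest difference and the largest spread. It was at 7.05, 7.38 and 6.71 in wild type hearts, at 9.08, 7.40 and 8.61 in Col4a3-/- hearts, and at 6.89, 6.80 and 7.43 in Col4a3-/-OPN-/- hearts. Replicates 1 and 3 of Col4a3-/- were high, while replicate 2 was level with the highest wild type and Col4a3-/-OPN-/- hearts. The means corresponded to a 2.49-fold higher signal in Col4a3-/- than in wild type hearts, or 1.32 on the log2 scale (SE 0.36, limma adjusted p = 0.450). With only the low-Xist hearts it was 0.35.

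Snora62, inside the gene of the ribosomal protein Rpsa, was at 8.78, 9.06 and 8.59 in wild type, 9.58, 9.28 and 9.48 in Col4a3-/-, and 8.60, 8.99 and 8.98 in Col4a3-/-OPN-/- hearts. All Col4a3-/- hearts were above all others, replicate 2 included, with a log2 difference from wild type of 0.64 (SE 0.16, limma adjusted p = 0.427). Snora69, inside Rpl39 on the X chromosome, was at 8.26, 8.55 and 8.26 in wild type, 9.02, 8.65 and 9.16 in Col4a3-/-, and 7.96, 8.28 and 8.58 in Col4a3-/-OPN-/- hearts. Here replicate 2 of Col4a3-/- was barely above the highest wild type and Col4a3-/-OPN-/- hearts, and the difference from wild type was 0.58 (SE 0.19, limma adjusted p = 0.491). Among all 8 probe sets hosted by ribosomal protein genes the median was 0.34 and 4 had an unadjusted p under 0.05, all higher. Snora21 in Rpl23 (0.27), Snora7a in Rpl32 (0.20) and Snora78, which lies within both Rps2 and Snhg9 (-0.02), had smaller differences.

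Other protein-coding hosts gave a like picture. Snora20, in the chaperonin gene Tcp1, was at 5.26 to 5.62 in wild type and at 6.57, 5.90 and 6.18 in Col4a3-/- hearts (log2 difference 0.73, SE 0.19, limma adjusted p = 0.427). Snora30, in the gene of the chromatin remodeller Srcap, was at 8.24, 8.42 and 8.40 in wild type and at 8.71, 9.04 and 8.91 in Col4a3-/- hearts (0.53, SE 0.15, limma adjusted p = 0.442). For Snora30 the low-Xist replicate 2 was the highest heart of all 9. Snora23, in the gene of the nuclear import receptor Ipo7, was at 9.95 to 10.2 in wild type and at 10.4, 10.4 and 10.7 in Col4a3-/- hearts (0.40, SE 0.13, limma adjusted p = 0.496). Snora41 in the elongation factor gene Eef1b2 (0.63) and Snora47 in Zbed3 (0.44) also had an unadjusted p under 0.05, although for both of them the groups overlapped.

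Snora30, Snora41 and Snora33 probe set 17239751 kept an unadjusted p under 0.05 for this comparison in all 21, 21 and 19 other settings in which they could be tested, the low-Xist hearts included. Snora68, with a log2 difference of 0.42, lost it in 10 of 21 settings and Snora47 in 6 of 21.

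Members in long non-coding hosts differed among themselves. Of the 3 in Snhg12, Snora16a had a log2 difference of 0.31, Snora44 of 0.20 and Snora61 of 0.22, and only Snora61 separated all Col4a3-/- hearts (6.70, 6.72 and 6.77) from all wild type hearts (6.38 to 6.63). The pair in Snhg3 parted. Snora73a was at 7.19, 7.23 and 6.78 in wild type and at 7.46, 7.37 and 7.55 in Col4a3-/- hearts (0.39, SE 0.15, limma adjusted p = 0.510). Snora73b was at 6.21, 6.99 and 6.08 against 6.58, 5.92 and 6.71 (-0.03, SE 0.28), with a spread in every genotype (SD 0.49, 0.43 and 0.37, n = 3 each) wider than any difference between their means. These related copies could share part of their signal on the array.

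Small Cajal body RNAs had small median differences. Their 5 tested probe sets had a median of 0.11 between Col4a3-/- and wild type hearts, with 4 above 0 (45% of all probe sets). Of the 5, 0 had an unadjusted p under 0.05, against 8.35% of all probe sets, and 5 are too few to set against that share. Scarna2, which guides methylation of U2 small nuclear RNA, was at 8.72, 8.71 and 8.59 in wild type and at 8.85, 8.27 and 8.92 in Col4a3-/- hearts (0.01, SE 0.17). Scarna10, a guide for U5 small nuclear RNA hosted by the condensin gene Ncapd2, had a difference of -0.00 (SE 0.14). The 2 probe sets of Scarna17 gave 0.11 each and followed each other over the hearts (Pearson's r = 0.91). Scarna6 in the autophagy gene Atg16l1 had the largest value, 0.33 (SE 0.20, limma adjusted p = 0.673), and overlapping groups. The median over the 26 tested Snora probe sets was 0.37, and the difference between both kinds was not tested. In Col4a3-/-OPN-/- against Col4a3-/- hearts 5 of the 5 Scarna probe sets were below 0 (42.3% of all probe sets), with a median of -0.05. There 1 of them, Scarna6 at -0.49, had an unadjusted p under 0.05, against 13.6% of all probe sets.

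**Figure D2:**
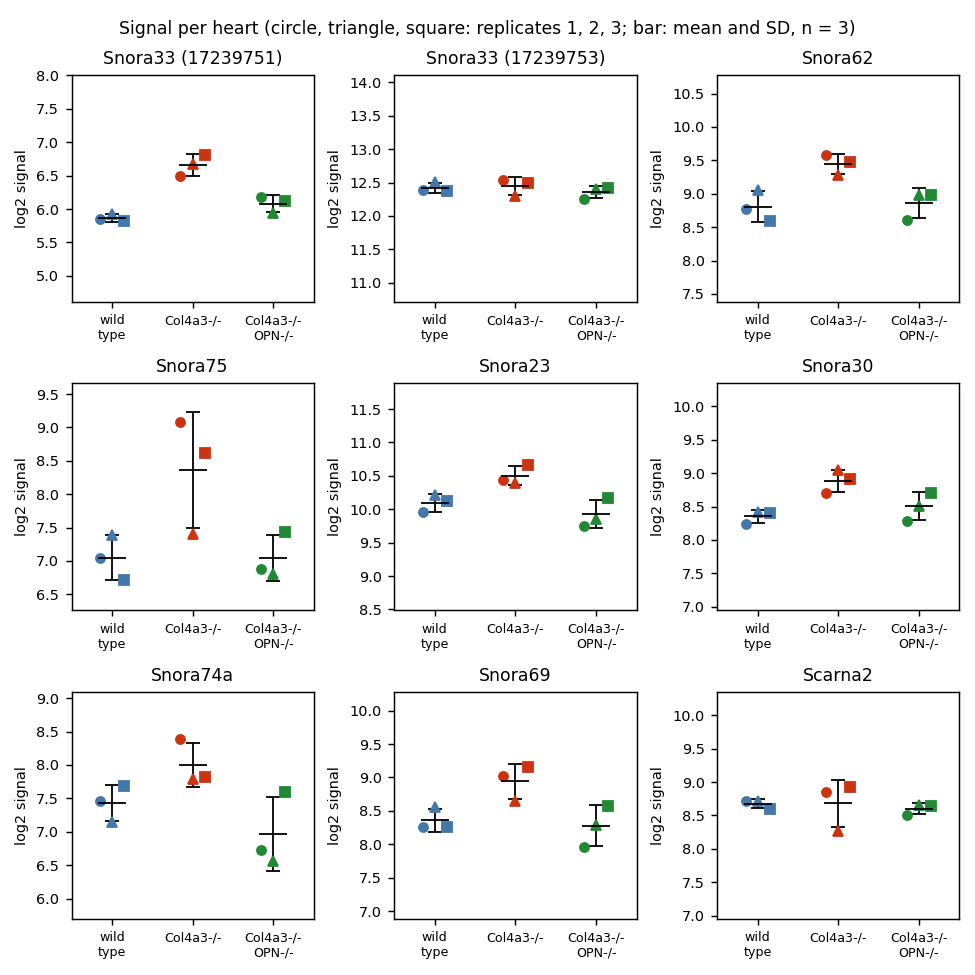
Log2 signal (vertical axes, each spanning the same number of log2 units) of 9 probe sets in each heart of the 3 genotypes, with the group mean and SD (n = 3). Snora33 on probe set 17239751 is higher in all Col4a3-/- hearts than elsewhere (6.49 to 6.81), its other probe set stays at 12.3 to 12.5, and Scarna2 overlaps between all genotypes.

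In Col4a3-/-OPN-/- hearts the members lay, by their medians over the group, below Col4a3-/- hearts and near wild type. In single hearts the median deviation from the wild type mean was -0.16 in replicate 1, -0.01 in replicate 2 and 0.03 in replicate 3. Against Col4a3-/-, the difference was below 0 for 30 of 31 members (42.3% of all probe sets), with Snora73b as the exception, and the median was -0.33 against 0.04 over all. The number above 0 was 4 when the values were quantile normalized again and 4 with arrays centred, 6 with array weights, 6 without Col4a3-/- replicate 3 and 10 with only the low-Xist hearts. An unadjusted p under 0.05 was found for 14 members (45.2%, against 13.6% of all probe sets). All 14 were lower, where 5.03% of all probe sets lay, and 0 higher, against 8.58%. With only the low-Xist hearts the median was -0.23. The groups did not overlap at 14 members either, all lower (6.48% of all, with 10.1% of all higher). No member passed over all probe sets (limma adjusted p from 0.144 to 0.995; 6 of 13650, 0.044%, passed). This comparison uses the same Col4a3-/- hearts as the previous one, so its opposite sign is not separate evidence.

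Snora74a, from the non-coding host Snhg4, showed values on both sides. It was at 7.46, 7.14 and 7.68 in wild type, 8.39, 7.79 and 7.82 in Col4a3-/-, and 6.73, 6.56 and 7.59 in Col4a3-/-OPN-/- hearts. Replicates 1 and 2 of Col4a3-/-OPN-/- were below every other heart and replicate 3 was within the wild type range. The log2 difference was -1.04 from Col4a3-/- (SE 0.27, limma adjusted p = 0.178), a 2.05-fold lower signal, and -0.47 from wild type (adjusted p = 0.999). For Snora75 the difference from Col4a3-/- was -1.32 (SE 0.36, limma adjusted p = 0.200). Without Col4a3-/- replicate 2, its level heart, this was -1.80 with a limma adjusted p of 0.0452, the only member and setting past the threshold. With only the low-Xist hearts, where that replicate is the sole Col4a3-/- heart, it was -0.24.

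Further members below Col4a3-/- were Snora20 (-0.69), Snora69 (-0.67), Snora62 (-0.59), Snora33 on probe set 17239751 (-0.58), Snora68 (-0.58), Snora23 (-0.57), Scarna6 (-0.49), Snora16a (-0.41), Snora30 (-0.39), Snora73a (-0.38) and Snora78 (-0.30). Snora28, in the initiation factor gene Eif5, was at 9.12, 8.88 and 9.33 in Col4a3-/- and at 8.0, 8.70 and 8.76 in Col4a3-/-OPN-/- hearts (-0.62, SE 0.20, limma adjusted p = 0.262), with replicate 1 of the latter lowest of all 9. That heart held the lowest value of 11 of the 31 members, a count without a share over all probe sets. Without it 9 members had an unadjusted p under 0.05, all lower, where 459 of 13650 probe sets were lower and 697 higher. The members' median was then -0.23.

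Between Col4a3-/-OPN-/- and wild type hearts the members' median was -0.03, against 0.01 over all probe sets, and 12 of 31 were above 0 (53.1% of all). Only Snora78 had an unadjusted p under 0.05 (3.23% of members, against 3.68% of all probe sets in either direction, 1.79% lower and 1.89% higher), a share like the background. It was at 6.03, 5.97 and 5.76 in wild type and at 5.38, 5.80 and 5.63 in Col4a3-/-OPN-/- hearts, which overlapped (-0.32, SE 0.13, limma adjusted p = 0.999). The number was 0 when replicate 1 or 2 of the wild type, or replicate 1 of Col4a3-/-OPN-/-, was left out. In the same order, 368, 377 and 350 of all 13650 probe sets had an unadjusted p under 0.05 in those fits. Snora33 on probe set 17239751 was the only member without overlap, with all Col4a3-/-OPN-/- hearts (5.94 to 6.18) above wild type (5.82 to 5.93), against 7.55% of all probe sets on that side and 5.65% on the lower side.

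**Figure D3:**
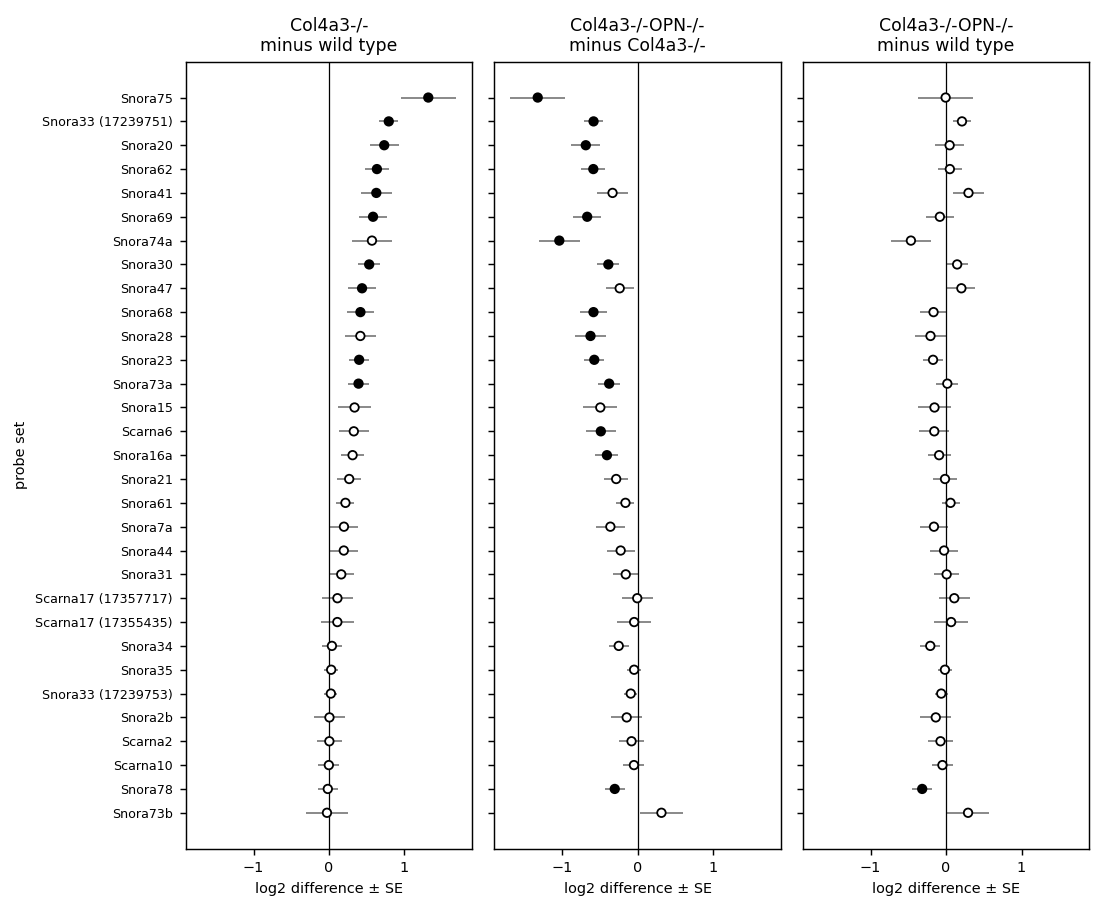
Log2 difference of each of the 31 tested probe sets in the 3 comparisons (panels), with the SE from the fit; filled points have an unadjusted p under 0.05. There are 11 filled points right of 0 in the first panel, 14 left of 0 in the second and 1 in the third.

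Host transcripts had smaller median differences than the small RNAs inside them. Both a member and its host could be tested for 25 pairs with 20 hosts, the brightest probe set standing for each host. In Col4a3-/- against wild type hearts the small RNA had the larger signed difference in 20 of 25 pairs, with medians of 0.34 for the members and 0.06 for the hosts, and 0 hosts passed over all probe sets. Hosts with an unadjusted p under 0.05 were Rps12 (0.42), Rpl32 (0.36) and Rpsa (0.27), all ribosomal protein genes whose many processed copies make their signal uncertain. In Col4a3-/-OPN-/- against Col4a3-/- hearts the small RNA had the lower difference in 21 of 25 pairs (medians of -0.38 and -0.06), and Tpt1 (-0.58), Rpl32 (-0.44), Rpsa (-0.34) and Rps12 (-0.30) had an unadjusted p under 0.05. Tpt1 and Rpsa each have a second, dimmer probe set that was tested, with smaller differences in the same direction: 0.22 and -0.19 for Tpt1 and 0.18 and -0.13 for Rpsa in the 2 comparisons. Kansl2, the host of Snora34 and Snora2b, has one with the opposite signs, 0.21 and -0.19, beside -0.08 and 0.20 on the brightest. The pair counts therefore depend on the probe set taken for this host. They count signed order and not size, and in some of the counted pairs the host difference was the larger in size. No test of member against host was run.

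Single pairs showed the gap. Nucleolin mRNA (Ncl) was at 8.61, 8.67 and 8.85 in wild type and at 8.62, 8.85 and 9.44 in Col4a3-/- hearts, a difference of 0.26 (SE 0.21) beside 1.32 for Snora75. Col4a3-/- replicate 1 had the highest Snora75 and a wild type level of Ncl. Snora20 had 0.73 beside -0.03 for Tcp1, Snora23 had 0.40 beside 0.02 for Ipo7, and Snora30 had 0.53 beside -0.26 for Srcap. The Srcap value rests on Col4a3-/- replicate 1, at 6.93 beside 8.57 and 8.5 in the other Col4a3-/- hearts, and was 0.27 without it. For Ncl the difference was 0.02 without Col4a3-/- replicate 3. In Col4a3-/-OPN-/- against Col4a3-/- hearts, Snora74a had -1.04 beside -0.03 for Snhg4. For Snora31 in Tpt1 and Snora7a in Rpl32 the host had the larger difference, 0.46 (0.22 on the second Tpt1 probe set) beside 0.16 and 0.36 beside 0.20 in Col4a3-/- against wild type hearts.

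**Figure D4:**
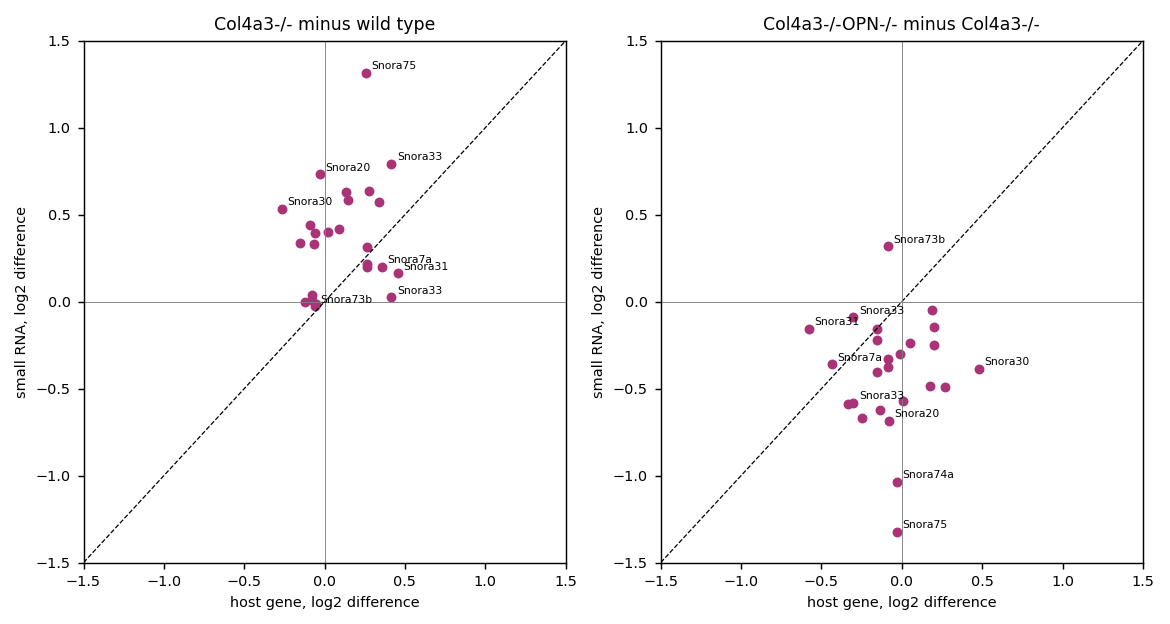
Log2 difference of each small RNA probe set (vertical) against that of its host gene (horizontal) for 25 pairs in 2 comparisons; the dashed line marks equal differences. In the left panel 20 pairs lie above the line and in the right panel 21 lie below it.

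The proteins that bind and mature H/ACA RNAs showed no common direction. Of the 4 core proteins, Dkc1, the pseudouridine synthase itself, was at 7.06, 6.92 and 7.07 in wild type, 6.86, 6.53 and 6.17 in Col4a3-/-, and 6.92, 6.96 and 6.80 in Col4a3-/-OPN-/- hearts. All Col4a3-/- hearts were below all wild type hearts, and the log2 difference was -0.49 (SE 0.17, limma adjusted p = 0.498). Nop10, which stabilises dyskerin's fold, pointed the other way at 0.29 (SE 0.12, limma adjusted p = 0.546), while Nhp2 had 0.05 and Gar1 -0.04. In Col4a3-/-OPN-/- against Col4a3-/- hearts Dkc1 (0.37) and Nop10 (-0.26) had an unadjusted p under 0.05 (limma adjusted p = 0.367 and 0.366). Of 7 assembly factors, which include Naf1 and Shq1, 4 were above 0 and 3 below between Col4a3-/- and wild type hearts, with a median of 0.01. Of these factors 0 had an unadjusted p under 0.05 in any comparison. Of 7 tested Cajal body and nucleolar partners, with Wrap53 and Coil among them, 0 had such a p in any comparison, and the same held for 5 factors of 3′ end trimming and capping. Among 12 stand-alone pseudouridine synthases, Trub1 was higher in Col4a3-/-OPN-/- hearts at an unadjusted p under 0.05 (0.36 from Col4a3-/- and 0.34 from wild type, limma adjusted p = 0.269 and 0.999). The telomerase RNA Terc, which carries an H/ACA domain, had differences of 0.08, 0.21 and 0.29 in the 3 comparisons in the order described, and Tert was dim.

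Genes named as hosts of small nucleolar RNAs leaned the same way as the members in 2 comparisons, with smaller medians. Of 18 tested, 10 had a difference above 0 between Col4a3-/- and wild type hearts (45% of all probe sets). Their median was 0.08, against -0.02 over all. In Col4a3-/-OPN-/- against Col4a3-/- hearts 13 of 18 were below 0 (42.3% of all), with a median of -0.06 against 0.04 over all. Snhg17 (0.38) and Snhg18 (-0.75) had an unadjusted p under 0.05, and Snhg18 also in Col4a3-/-OPN-/- against Col4a3-/- hearts (0.83). For the 43 tested probe sets of box C/D small nucleolar RNAs (Snord), the medians were 0.04 in Col4a3-/- against wild type hearts, -0.27 in Col4a3-/-OPN-/- against Col4a3-/- and -0.23 in Col4a3-/-OPN-/- against wild type, beside 0.31, -0.33 and -0.03 for the H/ACA members. In Col4a3-/- replicates 1 and 3 the Snord median was 0.35 and 0.28 above its mean over the 9 hearts, beside 0.26 and 0.36 for the H/ACA median. In Col4a3-/- replicate 2 the Snord median was 0.23 below its mean over the 9 hearts and the H/ACA median 0.04 above. Of the 43 Snord probe sets, 29 were above 0 in Col4a3-/- against wild type hearts, beside 28 of 31 members and 45% of all probe sets. In Col4a3-/-OPN-/- against Col4a3-/- hearts 39 of 43 were below 0, beside 30 of 31 members and 42.3% of all. The difference between the classes was not tested.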

How the data were processed

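Per the submitters' processing notes, the deposited log2 signals were made by the authors with RMA; software and versions are not given in the sources used here. Depth has no meaning for arrays, and the number of hearts limits the precision. Probe sets were named from the platform annotation. All 9 arrays entered 1 fit per probe set (limma 3.58.1, R 4.3.3, lmFit and eBayes with trend) over 13650 probe sets with 1 symbol and a mean above 5.21. Tests were two-sided with Benjamini-Hochberg adjustment at 0.05. SD is over 3 hearts and SE comes from the fit. With 3 hearts per group the smallest exact permutation p would be 0.1, and no such test was made. The labels give 3 mice per genotype and no pairing. Hosts are genes whose RefSeq span contains the member; the design asked for the same strand, which that table lacks. Marker levels are log2 of summed linear signals. Named members had an unadjusted p under 0.05, were among the 3 highest or lowest differences or the 6 largest SDs, were Scarna RNAs, or had probe sets of opposite sign; listed genes had an unadjusted p under 0.05. Snora7a, Snora19, Snora21, Snora31, Snora44, Snora61 and other listed genes were named after their values were seen. Members and lists were chosen with earlier results of these data known. In simulated arrays made for Col4a3-/- against wild type (13650 probe sets, 200 changed), the fit recovered 26%, 74%, 96% and 98% of changes of 0.5, 1, 2 and 3 log2 units, with 6 false among 153 calls. Alternatives were other scalings, filters, moderation, array weights, only the arrays compared, a replicate block, a Y-linked covariate, 1 probe set per gene and each heart left out; the fit of low-Xist hearts was chosen after seeing the data.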

Additional observations from a re-analysis of the deposited data

How the results depend on the processing

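The sign of the members' median held in all 21 other settings for Col4a3-/- minus wild type and for Col4a3-/-OPN-/- minus Col4a3-/-, and no named member with an unadjusted p under 0.05 changed sign. For Col4a3-/- minus wild type, leaving out each heart gave 8 to 15 members at an unadjusted p under 0.05 and medians of 0.20 to 0.42. Of all 13650 probe sets, 673 to 2078 had such a p there. With the Y-linked covariate there were 5 members, beside 715 of all probe sets, and a median of 0.17. With only low-Xist hearts, which leave 1 Col4a3-/- heart, the median was 0.10. For Col4a3-/-OPN-/- minus Col4a3-/- left-out hearts gave 9 to 18 members, beside 1156 to 2411 of all probe sets, and medians of -0.42 to -0.23. Those fits had 0 to 1 members past the adjusted threshold, beside 0 to 22 of all probe sets. Low-Xist hearts alone gave a median of -0.23. For Col4a3-/-OPN-/- minus wild type left-out hearts gave 0 to 1 members, beside 350 to 738 of all probe sets, and medians of -0.11 to 0.06. The stricter filter gave 0 members (Snora78 was not tested there), beside 214 of 8634 probe sets. Low-Xist hearts gave 2 members (1 higher, 1 lower), beside 1135 of 13650 probe sets. The cause was not tested. Replicate numbers do not pair the hearts (deviations of same-numbered hearts correlated at -0.19 to 0.23 over 9 pairs). With the replicate block 10, 14 and 1 members had an unadjusted p under 0.05 in the 3 comparisons, beside 1181, 1780 and 477 of all probe sets. The 6 probe sets past the adjusted threshold in the main fit became 0. With centred arrays, 1600 of all probe sets were higher and 408 lower at an unadjusted p under 0.05 in Col4a3-/-OPN-/- minus Col4a3-/-, against 1171 and 686, with 13 members lower and 0 higher, against 14 and 0. Counts past the adjusted threshold over all probe sets ranged from 0 to 31, 0 to 23 and 0 to 7 over the settings. Differences below about 1 log2 unit were often missed in simulated data. The simulated noise was independent between probe sets, and its 153 calls eased the adjustment. In the deposited values 0 of 13650 probe sets passed for Col4a3-/- minus wild type, so the recovery shares do not carry over to them.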

Other observations

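Another 13 probe sets carried a Snora or Scarna symbol together with a host gene or a microRNA and were left out of the set above. Their differences were above 0 in 13 of 13 for Col4a3-/- against wild type hearts (median 0.27), beside 45% of the 13650 probe sets tested. For Col4a3-/-OPN-/- against Col4a3-/- hearts they were below 0 in 13 of 13 (median -0.28), beside 42.3%. For Col4a3-/-OPN-/- against wild type hearts 5 of 13 were above 0 (median -0.04), beside 53.1%. The largest were Snora36b with Mir664 (0.76 in Col4a3-/- against wild type hearts) and Snora81 with the initiation factor gene Eif4a2 (-0.99 in Col4a3-/-OPN-/- against Col4a3-/- hearts). The 13 probe sets were not tested and share the same hearts, and Snora17 with Snhg7 was counted on both of its probe sets.

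Snora19, dim on both probe sets, had all Col4a3-/- hearts above all wild type hearts (4.90 to 5.18 against 4.79 to 4.90 on probe set 17363663). Its probe sets differed by at most 0.0221 log2 units in any heart, so they count as 1 measurement. Scarna8, also dim, ranged from 4.77 to 5.17.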
